A study of Caenorhabditis elegans with 6 samples.

Results

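The 3' UTR of C35E7.6 (WBGene00016458) carried 7 of the 636 significant, uniquely annotated read clusters of ADR-1, and these 7 are every cluster listed under that gene name. C35E7.6 encodes an uncharacterized protein and is known as a transcript edited by ADARs. Clusters are stretches in which CLIP reads pile up, as called by the authors with CLIPPER. They were chosen for enrichment over input on these same libraries, so a cluster being enriched describes the list and is not independent evidence of binding.

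The study asked where ADR-1 contacts RNA in Caenorhabditis elegans. It set 3 CLIP libraries (replicates 1 to 3), from RNA pulled down with anti-FLAG beads, against 3 size-matched input libraries with the same numbers, from RNA of the lysate before pulldown. All 6 came from 1 strain with 3xFLAG-tagged ADR-1 (HAH59), as whole mixed-stage animals fed E. coli OP50 at 20 °C and crosslinked with ultraviolet light at 3 J/cm2. The captions of the deposited tables call the animals wild-type, and the library titles name the tag. No library from an untagged strain is part of the comparison, so contact with ADR-1 and RNA held by the beads cannot be told apart. Whole animals also mix all tissues and stages, so the cells in which C35E7.6 RNA was contacted cannot be told apart.

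ADARs bind double-stranded RNA and convert adenosine to inosine within it. In C. elegans, ADR-2 is the active deaminase, while ADR-1 keeps double-stranded RNA binding domains, lacks deaminase activity and affects which adenosines ADR-2 edits. Many edited sites of worm messenger RNAs lie in 3' UTRs, where inverted repeats can fold into long hairpins.

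The library totals behind the deposited statistics were 5776707, 5773603 and 5775984 reads for CLIP replicates 1, 2 and 3, and 4158973, 2475493 and 4248714 reads for the inputs. The sources used here do not say whether the near-equal CLIP totals are each library's own depth. Replicate 2 stood apart from the other two: the median of all 636 clusters was a library-scaled log2 ratio of CLIP over input of 4.15 in replicate 1, 1.45 in replicate 2 and 3.55 in replicate 3. This ratio was taken on reads plus 1, scaled for the library totals. The ratios themselves depend on the totals, while ranks and differences between clusters within a replicate do not.

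The array lay on the plus strand of chromosome I from 10819137 to 10820552 (WBcel235 as named in the processing notes, coordinates as deposited). RefSeq places C35E7.6 at 10817342 to 10820843 in that assembly. The first cluster began 1795 bases after the gene's start and the last ended 291 bases before its end, so the array spanned 1415 bases, or 40.4% of the gene. No other reproducible cluster lay within 5000 bases on either strand. The neighbouring genes C35E7.7 and C35E7.5 were 2405 and 2520 bases away.

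The clusters are numbered 1 to 7 here from 5' to 3'. Their widths, taken as end minus start, ran from 66 to 189 bases with a median of 130, against a median of 83 over all 636 clusters. Together they covered 877 bases, 62.0% of the span. The gaps between neighbours were 168, 96, 65, 22, 11 and 176 bases in order, so clusters 3 to 6 were packed most closely and clusters 1 and 7 were set apart from the rest.

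Among all 363 gene identifiers in the list, C35E7.6 had the most 3' UTR clusters and the most bases under 3' UTR clusters. F58D5.5 and K02F3.2 followed with 6 such clusters each, covering 301 and 369 bases. By covered bases, Y92H12BL.1 came next with 574 bases in 5 clusters and scyl-1 with 566 bases in 3. In spsb-1, a gene with SPRY and SOCS box domains, 5 of 11 clusters lay in the 3' UTR. Of the 363, 216 had a single cluster.

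**Figure D1:**
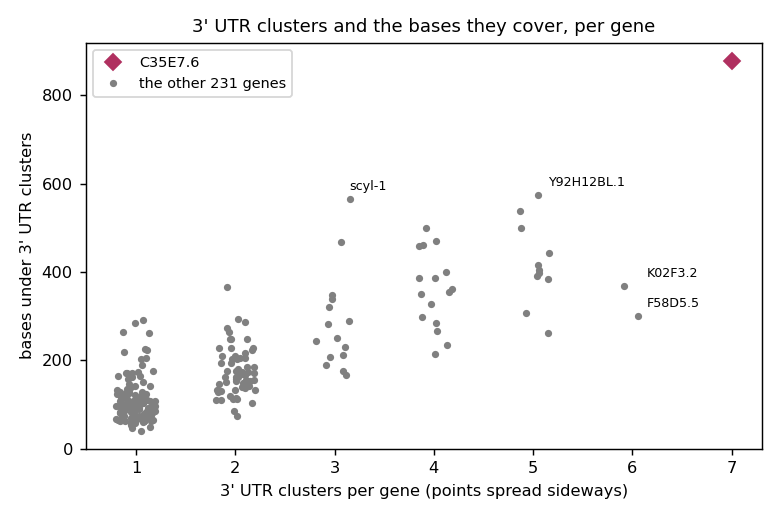
Bases under 3' UTR clusters (vertical axis) against the number of 3' UTR clusters (horizontal axis, points spread sideways to be seen) for each gene with at least 1. C35E7.6, the diamond, lies at 7 clusters and 877 bases, and scyl-1 and Y92H12BL.1 at 566 and 574 bases.

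Summed over the 7 clusters, C35E7.6 had 972, 184 and 572 reads in CLIP replicates 1, 2 and 3, and 19, 19 and 11 in input. In these raw reads the CLIP and input libraries did not overlap. How many of the 363 genes share this was not counted, and the list was chosen for enrichment, so it does not set C35E7.6 apart. By summed CLIP reads the gene ranked 30th of 363. The array took 0.751%, 0.658% and 0.719% of the CLIP reads in all 636 clusters, against 0.351%, 1.02% and 0.198% of the input reads there, so its CLIP share was higher than its input share in replicates 1 and 3 and lower in replicate 2.

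The library-scaled log2 ratio of the summed reads was 5.13, 1.99 and 5.13 in replicates 1, 2 and 3, a mean of 4.08 ± 1.82 (SD, n = 3). Replicate 2 was far below the other two. In edgeR's quasi-likelihood test with the library totals, the log2 fold was 4.34 (SE 1.01), with a Benjamini-Hochberg adjusted p of 4.28e-05. Of the genes tested, 98.8% were called higher in CLIP in the same way, so the call does not set C35E7.6 apart. Without both libraries of replicate 2, an alternative added after the data were seen, the log2 fold was 5.21, and with scaling on the clusters themselves it was 0.085 (TMM) and -0.00078 (DESeq2 size factors), not called by edgeR at adjusted p of 0.866 and 0.998.

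The size of this fold was near that of the list as a whole. It lay 0.17 above the median gene on the log2 scale with the library totals, 0.15 above it with TMM and 0.15 above it with DESeq2 size factors, and ranked 111th of 250 genes tested with the totals. On the ratio of reads plus 1 over all 363 genes, which pulls down genes with few reads, it ranked 85th by its mean, and 100th, 127th and 58th in replicates 1, 2 and 3. C35E7.6 was thus first by 3' UTR clusters and by bases under them. By CLIP over input it lay near the median of the genes edgeR tested. Among all 363 on reads plus 1 it ranked higher, though not at the top.

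Along the array, reads were unevenly spread. Cluster 6 (10820061 to 10820244, 183 bases) had the most, with 231, 57 and 141 reads in CLIP replicates 1, 2 and 3, and 3, 2 and 1 in input. The scaled log2 ratio there was 5.38, 3.05 and 5.71, a mean of 4.71 ± 1.45 (SD, n = 3), the highest of the 7. It ranked 149th, 85th and 48th of 636 in the replicates and 78th by the mean. The clusters just above and below it in that ranking were one of the laminin gene lam-2 at 4.72 and one of WBGene00235251 at 4.71, so its place among these is within the replicate spread.

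Cluster 2 (10819435 to 10819624, 189 bases), the widest, had 174, 35 and 119 reads in CLIP and 1, 3 and 2 in input. The scaled log2 ratio was 5.98, 1.95 and 4.88, a mean of 4.27 ± 2.08 (SD, n = 3), ranking 130th of 636. In replicate 1 it led the array, and in replicate 3 only cluster 6 was above it. Cluster 3 (10819720 to 10819813, 93 bases) had 148, 38 and 51 reads in CLIP and 1, 2 and 2 in input, and a ratio of 5.74, 2.48 and 3.67, with a mean of 3.97 ± 1.65 (SD, n = 3) at rank 167. Per base it was the most densely read in replicates 1 and 2, at 1.59 and 0.409 CLIP reads per base, but in replicate 3 its 0.548 was the lowest of the array.

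Clusters 4 and 5 lay in the middle of the ranking. Cluster 4 (10819878 to 10819962, 84 bases) had 129, 17 and 62 reads in CLIP and 2, 1 and 3 in input, and its log2 ratio of 4.96, 1.95 and 3.53 gave a mean of 3.48 ± 1.51 (SD, n = 3) at rank 233. Cluster 5 (10819984 to 10820050), the narrowest at 66 bases, had 64, 14 and 49 reads in CLIP and 1, 2 and 1 in input. Here the log2 ratio was 4.55, 1.10 and 4.20, a mean of 3.28 ± 1.898 (SD, n = 3) at rank 272. It had the fewest CLIP reads of the array in replicates 1 and 3, as a short cluster, while per base it was not the lowest in any replicate.

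The outermost clusters had the lowest mean ratios. Cluster 1 (10819137 to 10819267, 130 bases) had 103, 14 and 77 reads in CLIP and 7, 5 and 1 in input, and a log2 ratio of 3.23, 0.10 and 4.84, a mean of 2.72 ± 2.41 (SD, n = 3) at rank 371. Cluster 7 (10820420 to 10820552, 132 bases) had 123, 9 and 73 reads in CLIP and 4, 4 and 1 in input, and a log2 ratio of 4.16, -0.22 and 4.77, a mean of 2.90 ± 2.72 (SD, n = 3) at rank 337. In both, replicate 3 was above the median of all clusters and replicate 2 below it. The clusters next to cluster 1 in rank were one of T11F9.16 just above it, at 2.73, and one of K11H3.3 just below.

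**Figure D2:**
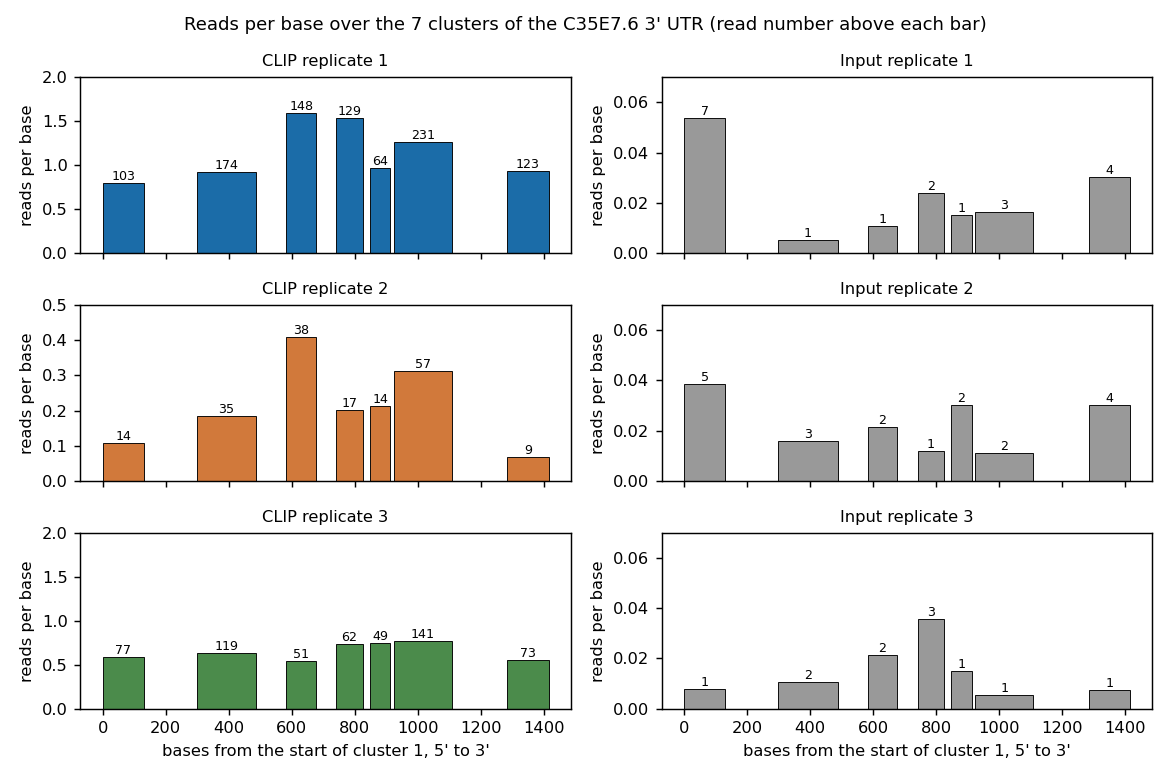
Reads per base over the 7 clusters for CLIP (left) and input (right), with replicates 1 to 3 from top to bottom; the horizontal axis is the distance in bases from the start of cluster 1, bar width is cluster width, and the number above a bar is its reads. CLIP replicate 2 has its own, smaller vertical scale, as its clusters held 9 to 57 reads, and the input panels run to far lower values, with 1 to 7 reads a cluster.

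In raw reads, not scaled for the library totals, the lowest CLIP count of each of the 7 clusters was above its highest input count. The closest were cluster 1, with 14 against 7 reads, and cluster 7, with 9 against 4 reads. Scaled for the totals, cluster 7 had a log2 ratio of -0.22 in replicate 2, so CLIP was not above input there. The share of all 636 clusters without overlap in raw reads was not counted, and the list was chosen for enrichment. Over the 7 clusters, mean ratios ran from 2.72 to 4.71 and ranks from 371 to 78 of 636, with a median of 3.48 against 2.99 over all clusters and 3.41 over the 431 3' UTR clusters. Among the 3' UTR clusters alone, cluster 6 ranked 74th and cluster 1 ranked 295th. Clusters 2, 3 and 6 lay above the median of all clusters in all 3 replicates, and no cluster of the array lay below it in all 3. The share of all 636 clusters doing either was not counted, so this does not set the array apart. With no pseudocount, as in the authors' deposited scaled ratio, the first and last ranks were 85 and 420.

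**Figure D3:**
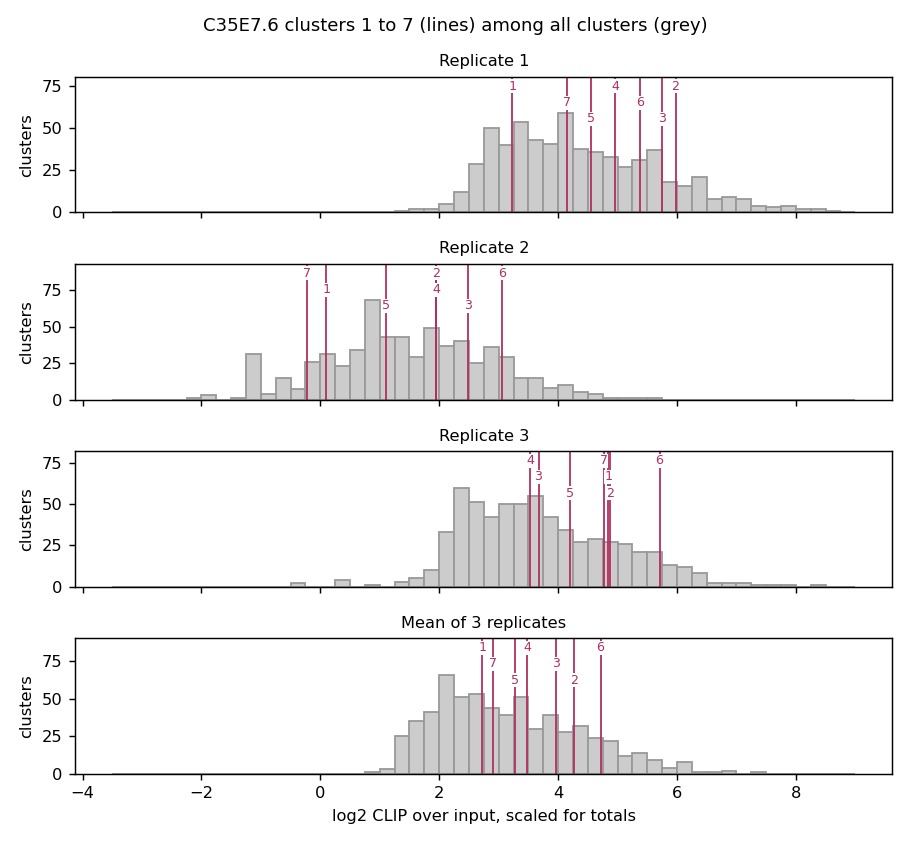
Distribution of the library-scaled log2 ratio of CLIP over input over all 636 clusters (grey bars, number of clusters) in each replicate and in the mean, with numbered lines for the C35E7.6 clusters. By the mean they run from 2.72 (cluster 1) to 4.71 (cluster 6), and their order differs between replicates.

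Of the 7 clusters, 6 passed edgeR's filter on low counts, and all 6 were called higher in CLIP with the library totals, where 97.2% of all clusters tested and 99% of the uniquely annotated ones were called so. Cluster 7 did not pass, since it had 9 reads in CLIP replicate 2. The log2 folds ran from 3.12 (SE 0.95, adjusted p of 0.00131 in edgeR) for cluster 1 to 5.38 (SE 1.17, adjusted p of 9.86e-06 in edgeR) for cluster 6, with a median of 4.58 against 4.44 over all clusters tested. With TMM or DESeq2 size factors, which centre these enriched clusters near 0, none of the 6 was called by edgeR, and the fold of clusters 1, 4 and 5 was below 0. At an unadjusted p under 0.05, edgeR had 1 of the 6 with either scaling, cluster 1, in the direction of input. DESeq2's own test with the library totals called all 7 higher in CLIP. Relative to the median of all clusters, the values hardly moved: cluster 6 was 0.94 above it with the totals and 1.01 with TMM, and cluster 1 was at -1.33 with the totals and -1.35 with TMM.

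All 7 clusters had a p under 0.05 in replicates 1 and 3 in the authors' deposited table, which holds a test within each replicate, where 99.8% and 99.5% of all clusters had it. In replicate 2 of the authors' deposited table, clusters 2, 3, 4 and 6 had it, 4 of 7, against 46.7% of all clusters. Clusters 1 and 5 had p-values of 0.92 and 0.174 there in the authors' deposited table. Cluster 7 did not pass either: its deposited scaled log2 ratio there was -0.05, close to no difference, from 9 CLIP and 4 input reads. A deposited p under 0.05 in all 3 replicates was thus found for 4 of the 7, against 46.1% of all clusters and 53.4% of 3' UTR clusters.

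**Figure D4:**
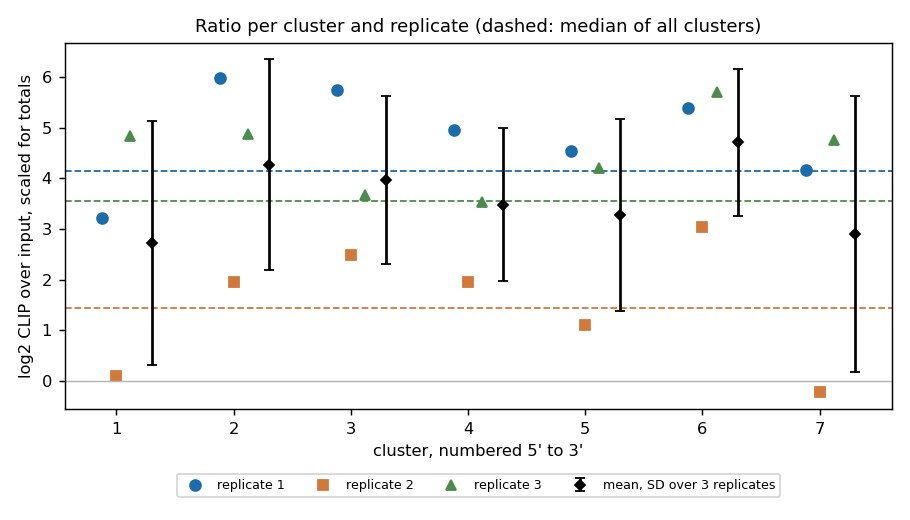
Library-scaled log2 ratio of CLIP over input for clusters 1 to 7 in replicate 1 (circles), 2 (squares) and 3 (triangles), with the mean and SD (n = 3) in black; dashed lines are the medians of all 636 clusters in each replicate. Replicate 2 is the lowest of the 3 in every cluster, and clusters 1 and 7 have the widest spread.

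The differences between the clusters were mostly within the replicate spread. Of the 21 pairs, 8 (38.1%) had the same order of ratios in all 3 replicates, against 61.4% of 342 pairs within the other 105 genes with 2 or more 3' UTR clusters. Cluster 6 lay above clusters 1, 4, 5 and 7 in all 3 replicates, by 1.99 ± 1.05, 1.23 ± 0.88, 1.43 ± 0.56 and 1.81 ± 1.27 on the log2 scale (SD, n = 3). Cluster 2 lay above clusters 1, 5 and 7, and cluster 3 above cluster 4, in every replicate with reads plus 1. With input counts of 1 taken as 0, 3 of the 8 pairs remained, cluster 6 above clusters 1, 4 and 7, so the order of the other pairs depends on how the lowest input counts are read. With no pseudocount, as in the authors' deposited scaled ratio, 6 pairs remained, and cluster 2 was no longer above clusters 1 and 7 in every replicate. An exact two-sided sign-flip test over 3 replicates cannot go below p = 0.25, the value of all 8 pairs, so no pair could pass at 0.05. With 2 replicates to share an order, 16 of the 21 pairs did so without replicate 3, 11 without replicate 1 and 10 without replicate 2.

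Replicate 3 differed from the other two in the order of the clusters. Over the 7 clusters, which share their libraries, Pearson's r between log2 ratios was 0.832 in replicates 1 and 2, -0.097 in replicates 1 and 3, and -0.003 in replicates 2 and 3. For CLIP reads alone, r was 0.886, 0.840 and 0.698 for replicates 1 and 2, 1 and 3, and 2 and 3. Still, 12 of the 21 pairs (57.1%) had the same order of CLIP reads in all 3 replicates, against 75.7% in the other 105 genes. By CLIP reads per base, 11 of 21 (52.4%) did, against 61.7%. Input reads of replicate 3, 1 to 3 a cluster, had r of -0.465 with replicate 1 and -0.592 with replicate 2. These correlations are descriptions over 7 points.

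The outermost clusters, put together after the values were seen, show where the replicates parted. Clusters 1 and 7 had 226, 23 and 150 reads in CLIP and 11, 9 and 2 in input in replicates 1, 2 and 3. Clusters 2 to 6 had 746, 161 and 422 reads in CLIP and 8, 10 and 9 in input. The log2 ratio of clusters 2 to 6 minus that of clusters 1 and 7 was 2.13, 2.62 and -0.25, a mean of 1.50 ± 1.54 (SD, n = 3), which is within the spread of the replicates. In replicate 3 the outer clusters had 1 input read each, the lowest deposited count, and so did clusters 5 and 6.

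Shares of the array's own CLIP reads need no library total, and by construction they leave out the level of each replicate. Cluster 6 held 23.8%, 31.0% and 24.7% of them in replicates 1, 2 and 3, with 95% Wilson intervals of 21.2 to 26.5, 24.7 to 38.0 and 21.3 to 28.3. Cluster 2 held 17.9%, 19.0% and 20.8%, and cluster 5 held 6.58%, 7.61% and 8.57%. Cluster 7 held 12.7% and 12.8% in replicates 1 and 3 but 4.89% (2.59 to 9.03) in replicate 2. Cluster 3 held 15.2% (13.1 to 17.6) and 20.7% (15.4 to 27.1) in replicates 1 and 2 but 8.92% (6.85 to 11.5) in replicate 3. CLIP reads followed cluster width, with a Pearson r of 0.841 over the 7 clusters, and pooled input reads did not follow pooled CLIP reads, with an r of -0.134.

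Input depth limits each single fold. The 7 clusters had 49 input reads in 3 libraries, and 8 of the 21 input counts were 1. Since no deposited count is below 1, a count of 0 can stand as 1. Pooled over replicates, cluster 6 had 429 CLIP reads against 6 input reads, a fold of 44.9 (95% exact counting interval 20.5 to 123.1). Cluster 1 had 194 CLIP reads against 13 input reads, a fold of 9.37 (5.35 to 17.9), and cluster 7 had 205 against 9, a fold of 14.3 (7.39 to 31.7). The intervals of clusters 6 and 1 did not overlap, while those of the other clusters overlapped that of cluster 6. For the whole array the pooled fold was 22.2 (16.7 to 30.1). The intervals cover counting error only.

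Beside the other genes with 6 or more clusters, C35E7.6 had the most CLIP and input reads summed over replicates. F58D5.5 came next by CLIP reads and passed C35E7.6 in replicate 2, with 608, 191 and 299 reads in CLIP and 8, 8 and 6 in input and a mean log2 ratio of 4.59 ± 1.25 (SD, n = 3). K02F3.2 stood at 4.43 ± 1.41, and unc-34, which encodes an Ena/VASP regulator of actin, at 4.34 ± 1.09. spsb-1 reached 3.61 ± 1.53 and Y56A3A.2 reached 3.36 ± 1.21 (SD, n = 3). C35E7.6, at 4.08 ± 1.82, lay between them, with SDs that hold the low replicate 2 these genes share. Relative to the median of all 363 genes in each replicate, which takes that level out, C35E7.6 was at 1.05 ± 0.49, F58D5.5 at 1.55 ± 0.24 and Y56A3A.2 at 0.32 ± 0.30 (SD, n = 3). These differences were not tested. Reads plus 1 pulls down genes with few reads, and this median is not that of the 250 genes edgeR tested. spsb-1 was below C35E7.6 in all 3 replicates. The C35E7.6 array lay wholly in a 3' UTR, as did those of F58D5.5 and K02F3.2, with 6 of 6 clusters each. Of the others, spsb-1 had 5 of 11 there, unc-34 5 of 7 and Y56A3A.2 4 of 7.

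Of 10 known edited transcripts, a list chosen with earlier results of these data known, 8 had a cluster in the list, and all 8 were called higher in CLIP by edgeR on summed reads, against 98.8% of all genes tested. Their median log2 fold was 4.40, against 4.17 over all genes tested. No cluster in the list used here was under the names clec-41 or M05B5.3. pop-1, whose product is a TCF factor of the Wnt pathway, had about as many CLIP reads as C35E7.6 in replicate 1, with 1048, 235 and 512 against 6, 8 and 8 input reads, and a mean log2 ratio of 5.21 ± 1.64 (SD, n = 3). rncs-1, a noncoding RNA that can inhibit Dicer, had 1094, 128 and 713 reads in CLIP and 29, 20 and 13 in input, and stood at 3.78 ± 2.08.

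lem-2, the gene of a LEM-domain protein of the nuclear envelope, had the most reads of these, with 3068, 607 and 2221 reads in CLIP and 37, 19 and 38 in input, and stood at 4.99 ± 1.13 (SD, n = 3). Below it were lam-2, for a laminin chain, at 4.62 ± 1.13, the syntaxin gene unc-64 at 3.89 ± 1.18 and Y75B8A.8 at 3.40 ± 1.22 (SD, n = 3). Lowest was alh-7, of the aldehyde dehydrogenase family, at 2.84 ± 2.07. In number of 3' UTR clusters C35E7.6 led this list, followed by pop-1 with 5 and lem-2 with 3.

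Relative to the same median of all 363 genes in each replicate, C35E7.6 was 0.94, 0.62 and 1.58 higher on the log2 scale in replicates 1, 2 and 3. lem-2 was 1.67, 2.34 and 1.83 higher, and pop-1 2.56, 2.13 and 1.83 higher, so both lay above C35E7.6 in all 3 replicates. rncs-1, at 0.52, 0.03 and 1.67, shared with C35E7.6 its lowest value in replicate 2 and its highest in replicate 3. These differences between genes were not tested.

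Among the 106 genes with 2 or more 3' UTR clusters, the pattern over the 3 replicates closest to that of C35E7.6 was found in Y92H12BL.5, mdt-17 and wac-1.1, at Euclidean distances of 0.23, 0.46 and 0.54 between the 3 log2 ratios. Y92H12BL.5 had log2 ratios of 5.25, 2.06 and 5.32 in replicates 1, 2 and 3. mdt-17, a Mediator complex subunit gene, had 5.41, 2.22 and 4.84, and wac-1.1 had 5.12, 2.24 and 4.66. The likeness is over 3 values for each gene, and it covers the low replicate 2 that most genes share.

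**Figure D5:**
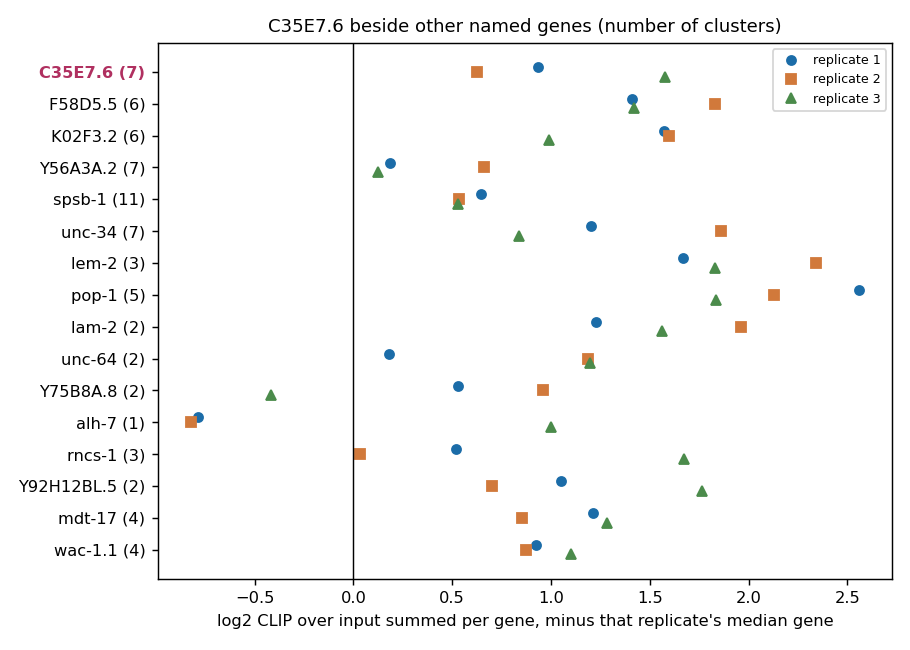
Log2 ratio of CLIP over input summed over each gene's clusters, minus the median of all 363 genes in the same replicate (horizontal axis), for C35E7.6 at the top and the other genes named in the text, with the number of clusters in brackets. C35E7.6 lies at 0.94, 0.62 and 1.58 in replicates 1 to 3, within the range of the others, with lem-2 and pop-1 further to the right in each replicate.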

How the data were processed

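The submitters' processing notes name fastp 0.21.0, STAR 2.7.10b and the builds ce11 and WBcel235. Per the file headers, CLIPPER called the clusters, with WormBase WS275 as annotation. Raw read counts in each cluster were deposited by the authors for every library (736 reproducible clusters, of which 636 are uniquely annotated), with, per the file headers, a p-value for each replicate by chi-square or Fisher's exact test. The deposited log2 fold is that of reads plus 1, unscaled, in 636 of 636 clusters of each replicate. A deposited log2 column headed entropy is the log2 ratio scaled for library totals in 636 of 636 (tolerance 0.0061). The deposited chi-square score was used to recover the library totals: the Yates-corrected statistic fitted 130 of 130 scores of replicate 1, 73 of 76 of replicate 2 and 116 of 116 of replicate 3 to within rounding. The recovered totals carry standard errors of 0.0332%, 0.991% and 0.0881% for CLIP replicates 1, 2 and 3.

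Counts were tested with edgeR 4.0.16 (glmQLFit, glmQLFTest, filterByExpr, Benjamini-Hochberg, threshold 0.05) over all 736 clusters, and over reads summed per gene for 363 identifiers, with the totals as library sizes. DESeq2 1.42.0 was an alternative. Both ran in R 4.3.3, the rest in Python 3.11. The edgeR and recovery steps were tested on simulated data. The members and lists were chosen with earlier results of these data known. Named beside C35E7.6 are clusters within 5000 bases, genes with 6 or more clusters, 10 known edited transcripts, the 3 genes closest in pattern and the neighbours in rank. Y92H12BL.1 and scyl-1 were named after their values were seen. Same-numbered CLIP and input libraries share a lysate per the labels' protocols (2% of 5 mg kept as input after 150 units of RNase I). Deviations of same-numbered libraries from their group's mean correlated at 0.309, 0.0971 and 0.00307. No source used here says whether replicates are separate cultures. The p-values therefore cover only variation among these 6 libraries, which can be technical.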

Additional observations from a re-analysis of the deposited data

How the results depend on the processing

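Of 78 values from alternative fits of the 6 clusters tested, 66 kept their direction and their call. The other 12 came from TMM and DESeq2 size factors, which by construction centre these enriched clusters near 0 (median of all clusters -0.15 and -0.23). Clusters 2, 3 and 6 stayed above 0 without a call there, and clusters 1, 4 and 5 were at -1.50, -0.33 and -0.34 with TMM and at -1.57, -0.41 and -0.41 with DESeq2 size factors. The count of C35E7.6 clusters called higher was 0 with TMM and 0 with DESeq2 size factors in edgeR (1 at an unadjusted p under 0.05 in each, cluster 1, lower), against 6 with the library totals and 6 to 7 under each other alternative, DESeq2's test included. Over all 463 clusters, 450 were called higher and 0 lower with the totals, 38 higher and 72 lower with TMM, and 35 higher and 73 lower with DESeq2 size factors.

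The log2 fold of the summed array was 0.085 with TMM and -0.00078 with DESeq2 size factors, and 3.74 to 4.79 with 1 library left out. The replicate block gave 6 clusters called and a summed fold of 4.23 (adjusted p of 0.000476 in edgeR), and changed no call of the array or its clusters. The median of the clusters' mean ratios ranged from 2.74 to 4.46 with a replicate left out. The number of pairs of clusters in the same order, 8, became 3 with input counts of 1 taken as 0, and ranged from 10 to 16 with a replicate left out, where fewer replicates had to share an order. Depth is a limit too, with 49 input reads for 7 clusters.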
